A study of Mus musculus with 4 samples.

Results

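The genes described here are 10 airway and mucosal secretory genes: Bpifb1, Bpifa1, Scgb1a1, Scgb3a1, Scgb3a2, Muc5b, Foxj1, Reg3g, Ltf and Pigr. They were taken by symbol from the deposited count table, and all 10 were found among its 16218 genes. The samples were thyroids of mice of the thyroiditis-prone strain NOD.H-2h4, injected 3 times a week for 2 weeks. Treated mice received a monoclonal antibody against PD-L1, which restrains T cells through the receptor PD-1, and the controls an isotype IgG, with 2 poly(A)-selected RNA-seq libraries per group. The labels give each library a clone string of its own, and they give neither age nor sex. Sample titles name a thyroid from mouse, in the singular, but do not state whether a library is 1 animal or a pool. The p-values therefore measure only the spread between these libraries. The series asked which thyroid genes differ after PD-L1 blockade. These 10 genes bear on how much RNA of airway or mucosal type each dissected thyroid carried.

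Library totals lay between 75591923 and 79663374.5 counts. All 14 genes of the thyroid follicular list were found, and Tg, the thyroglobulin gene, had the largest count in each library. Summed CPM (counts scaled to library size, with TMM, the trimmed mean of M-values) of that list was 46234 and 167566 in anti-PD-L1 replicates 1 and 2, against 155991 and 150528 in IgG replicates 1 and 2. Anti-PD-L1 replicate 1 thus had the lowest thyroid signal. It also stood apart in Xist, the RNA of the inactive X chromosome, with 1.40 CPM against 67.7 CPM in the other anti-PD-L1 library and 72.7 and 72.3 CPM after IgG. Ddx3y, a gene of the Y chromosome, had 62.6 CPM in it, 0.790 CPM in the other anti-PD-L1 library and 0.350 and 0.486 CPM after IgG. By these genes anti-PD-L1 replicate 1 read as male and the other 3 libraries as female, and the part of sex in the results was not tested.

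The conducting airway is lined by secretory club and goblet cells and by multiciliated cells, and glands below the surface release mucus and antimicrobial proteins. Together they form a fluid layer that traps microbes and is moved by cilia, with the polymeric immunoglobulin receptor adding antibody to it. The thyroid lies against the trachea and larynx. The transcription factor NKX2-1 is shared by thyroid follicular cells and by the epithelium of the lower airway.

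The 10 genes varied more between the 4 libraries than most genes did. Their ratio of highest to lowest library had a median of 8.66-fold (5.73 to 24.8), against a median of 1.43-fold over all genes. Within a group the 2 libraries differed by 1.27-fold (Scgb1a1) to 24.8-fold (Bpifb1) after anti-PD-L1 and by 2.07-fold (Bpifb1) to 14.6-fold (Reg3g) after IgG. Of the 10, 8 were lowest in IgG replicate 1, where 19.7% of all genes were lowest. In IgG replicate 2, 7 were highest, where 17.4% of all genes were highest. The other 3, Bpifb1, Ltf and Muc5b, were highest in anti-PD-L1 replicate 1, where 30.7% of all genes were highest. None was highest in anti-PD-L1 replicate 2 or IgG replicate 1, where 31.5% and 20.4% of all genes were. Bpifb1 and Reg3g were lowest in anti-PD-L1 replicate 2, where 32.3% of all genes were lowest. The 2 IgG libraries therefore held the lowest and the highest values of most of these genes. In bulk tissue fewer cells of a type and less RNA per cell cannot be told apart.

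**Figure D1:**
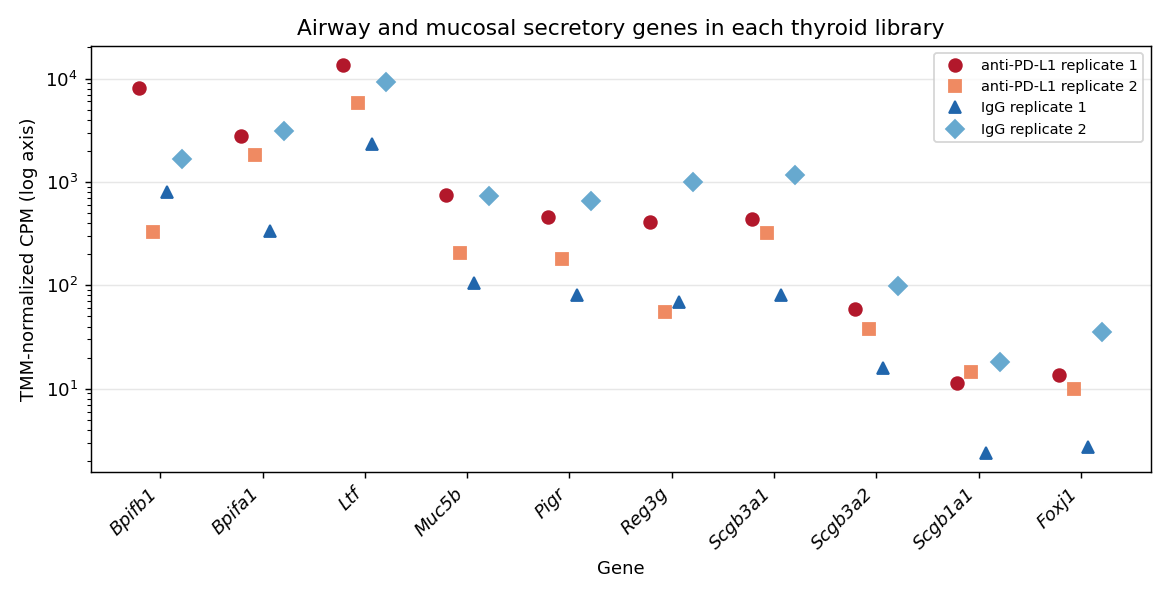
TMM-normalized CPM on a log axis for each of the 10 genes, with 1 point per library (2 anti-PD-L1, 2 IgG). IgG replicate 1 is the lowest point for 8 genes and IgG replicate 2 the highest for 7, and no gene separates the groups.

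Levels between genes were compared per kilobase of exon, using the union of exons of all annotated transcripts. Mean CPM per kb over the 4 libraries was 2237 for Ltf, 1302 for Bpifa1, 836 for Scgb3a1, 755 for Bpifb1 and 181 for Reg3g. It was 85.3 for Pigr, 60.2 for Scgb3a2, 29.7 for Muc5b, 24.5 for Scgb1a1 and 5.90 for Foxj1. Ltf was the highest of the 10 and Foxj1 the lowest in each library, while neighbours between them had ranges that overlapped. By CPM, which is not scaled for length, Ltf ranked 4 and 2 among all genes in anti-PD-L1 replicates 1 and 2, against 18 and 6 in IgG replicates 1 and 2.

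Bpifa1 and Bpifb1 encode secreted proteins of the BPI fold family, which coat the upper airway surface and have antimicrobial roles. Bpifa1 lies on chromosome 2 from 154142880 to 154149219 of GRCm38. Bpifb1 begins 41.6 kb further on the same strand, from 154190818 to 154220369. Bpifa1 had 2803 and 1803 CPM after anti-PD-L1, against 337 and 3101 CPM after IgG. IgG replicate 1 stood well below the other 3. Bpifb1 had 8125 and 328 CPM after anti-PD-L1, against 807 and 1668 CPM after IgG. It was highest in one anti-PD-L1 library and lowest in the other, a 24.8-fold gap within the group.

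The 2 neighbours therefore changed their order between libraries. The ratio of Bpifb1 to Bpifa1, per kb, was 1.24 and 0.0778 after anti-PD-L1 and 1.02 and 0.230 after IgG, a 15.9-fold range. Among 12 other BPI fold genes found of 15 looked for, the median ratio of highest to lowest library was 1.74-fold. Bpifb2, one of these, had 24.5 and 18.9 CPM after anti-PD-L1 against 2.13 and 38.4 CPM after IgG, so it too was lowest in IgG replicate 1.

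The 250 bases before the RefSeq start are shown for both BPI fold genes, because their profiles differ although they are neighbours, and for Scgb3a1, described next. Capitals mark matches to CTCAAG or CAAGTG, core letters bound by NKX2-1, and to TGTTTAC or TGTTTGC, letters bound by FOXA factors, on either strand. The build is GRCm38.p6, and each lies on the plus strand, at chr2:154142630-154142879, chr2:154190568-154190817 and chr11:49663345-49663594 in the order shown.
Bpifa1: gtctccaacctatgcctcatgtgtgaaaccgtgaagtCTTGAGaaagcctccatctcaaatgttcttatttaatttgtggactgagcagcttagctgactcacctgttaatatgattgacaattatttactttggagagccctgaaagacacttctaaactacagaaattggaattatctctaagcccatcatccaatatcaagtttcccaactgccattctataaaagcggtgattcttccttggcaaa
Bpifb1: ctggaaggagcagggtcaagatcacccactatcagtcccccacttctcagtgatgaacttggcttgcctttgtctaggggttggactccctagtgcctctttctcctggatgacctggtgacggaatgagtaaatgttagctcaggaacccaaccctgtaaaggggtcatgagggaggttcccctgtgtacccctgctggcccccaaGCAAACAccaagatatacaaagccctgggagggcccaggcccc
Scgb3a1: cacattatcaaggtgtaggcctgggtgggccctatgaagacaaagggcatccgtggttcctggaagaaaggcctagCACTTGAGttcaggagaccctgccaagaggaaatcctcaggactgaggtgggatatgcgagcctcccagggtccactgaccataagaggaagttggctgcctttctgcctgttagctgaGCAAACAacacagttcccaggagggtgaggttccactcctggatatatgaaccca

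Bpifa1 held 1 match to the NKX2-1 letters, starting 213 bases before the start. Bpifb1 held none and 1 match to the FOXA letters at 43 bases. Scgb3a1 held both kinds, with 2 overlapping NKX2-1 matches at 174 and 172 bases and a FOXA match at 55 bases. Of all 32851 windows of this length in the RefSeq table, 22.6% held the NKX2-1 letters and 7.29% the FOXA letters, so matches of this kind are common. RefSeq windows were searched for 6 of the 10 genes, and none was searched for Scgb1a1, Scgb3a2, Muc5b and Foxj1. Reg3g held 1 NKX2-1 match at 39 bases, while Ltf and Pigr held none of either kind. The windows were also searched on both strands for TTCNNNGAA, letters bound by STAT factors and present in 7.02% of windows. These were found 194 bases before the start of Scgb3a1 and 146 bases before a start of Bpifb1 inside the gene.

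Secretoglobins are small secreted proteins of club cells and related secretory cells, and Scgb1a1 is the classical club cell marker. Scgb3a1 (chromosome 11, 49663610 to 49665118) had 439.6 and 319.9 CPM after anti-PD-L1 against 81.0 and 1160 CPM after IgG. Scgb3a2 (chromosome 18, 43764289 to 43767399) had 58.9 and 37.8 CPM against 15.9 and 99.2 CPM after IgG. For both genes the anti-PD-L1 libraries lay between the 2 IgG libraries. Scgb1a1 (chromosome 19, 9083636 to 9087958) had 11.5 and 14.6 CPM after anti-PD-L1 against 2.41 and 18.2 CPM after IgG. It followed the same order of highest and lowest library, though at a lower level: per kb, Scgb3a1 was 30.5 and 17.5 times Scgb1a1 after anti-PD-L1 and 26.7 and 50.7 times after IgG. Of 9 other secretoglobin genes looked for, 1 was found, Scgb2b2, at 1.60 to 1.94 CPM.

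Foxj1 (chromosome 11, 116330704 to 116335399) encodes the transcription factor that drives the formation of motile cilia and so reads multiciliated rather than secretory cells. It had 13.7 and 9.94 CPM after anti-PD-L1, against 2.73 and 35.6 CPM after IgG. Its profile over libraries was almost that of Scgb3a1. The ratio of Scgb3a1 to Foxj1, per kb, was 141 and 141 after anti-PD-L1 and 130.3 and 143 after IgG, a 1.10-fold range while each gene varied more than 13-fold. For the other 8 genes the ratio to Foxj1 varied between 1.85-fold for Pigr and 18.0-fold for Bpifb1. This pair was singled out after its values were seen, and 4 libraries give no test of it.

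**Figure D2:**
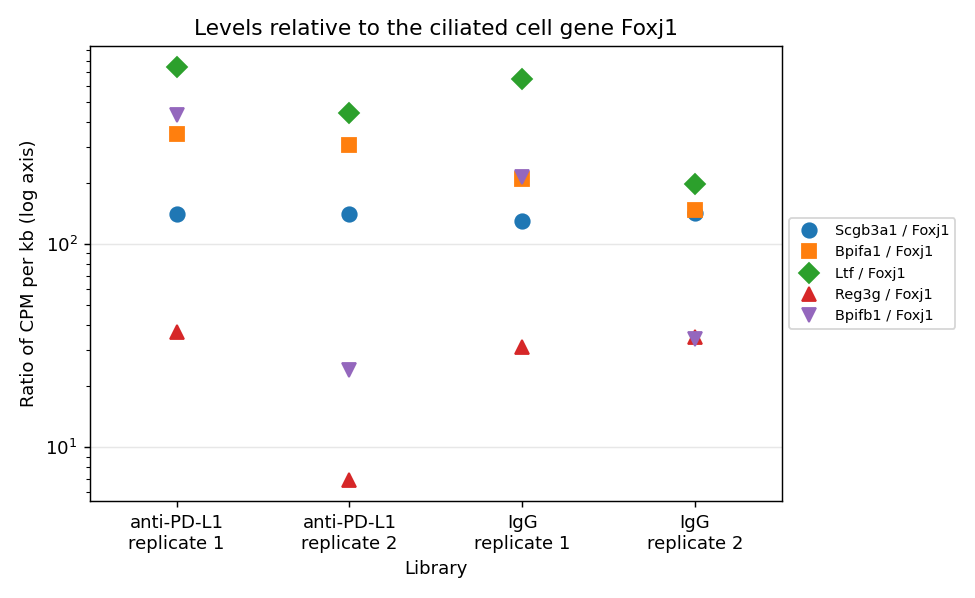
Ratio of CPM per kb of 5 genes to Foxj1 in each library, on a log axis. Scgb3a1 stays between 130.3 and 143 in all 4 libraries, while Bpifb1 lies between 24.0 and 431.

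Most genes of the wider multiciliated list had the same highest and lowest libraries as Foxj1. Of 36 genes 35 were found, and 28 were highest in IgG replicate 2 and 25 lowest in IgG replicate 1, against 17.4% and 19.7% of all genes. Sec14l3, found in ciliated airway cells, had 43.3 and 41.8 CPM after anti-PD-L1 against 9.97 and 71.7 CPM after IgG. Dnah5, a dynein heavy chain gene of motile cilia, varied less, with 38.0 and 47.7 CPM after anti-PD-L1 against 34.9 and 71.6 CPM after IgG. Tppp3, a tubulin-binding protein gene and the most abundant of the list, had another order, with 164 and 50.3 CPM against 188 and 152 CPM after IgG. The list's summed CPM, 479 and 374 after anti-PD-L1 against 401 and 631 after IgG, was lowest in anti-PD-L1 replicate 2. Across its genes the median ratio of highest to lowest library was 2.59-fold. No gene of the list was called by edgeR or DESeq2, where DESeq2 called 2.93% of all genes higher and 0.327% lower. The list's median log2 fold change was -0.16, anti-PD-L1 minus IgG, against 0.00021 over all genes.

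Muc5b encodes a gel-forming mucin of airway mucus and glands, and Pigr the receptor that carries polymeric antibody across epithelia. Muc5b (chromosome 7, 141839070 to 141873084) had 745 and 205 CPM after anti-PD-L1, against 106 and 724 CPM after IgG. Pigr (chromosome 1, 130826684 to 130852249) had 455 and 179 CPM after anti-PD-L1, against 81.1 and 658 CPM after IgG. In both genes anti-PD-L1 replicate 1 and IgG replicate 2 were high and the other 2 libraries low. Muc5ac, the other gel-forming mucin of the airway surface and named after its values were seen, was at 4.38 and 3.71 CPM after anti-PD-L1 and 3.29 and 6.85 CPM after IgG. Tff2, a trefoil peptide gene co-secreted with mucins and listed here with club cell genes, had 1316 and 175 CPM against 111 and 924 CPM after IgG. The same pair of libraries was high. Cyp2f2 and Gsto1 of that list, given below, had other orders. Muc1, a mucin gene of the goblet list, had 38.5 and 6.49 CPM after anti-PD-L1 against 49.2 and 19.9 CPM after IgG, and so was highest in IgG replicate 1.

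Plasma cell genes shared this order only in part. Of the 11 found, 7 were lowest in IgG replicate 1 and 5 highest in anti-PD-L1 replicate 1, against 19.7% and 30.7% of all genes. None was highest in IgG replicate 2, against 17.4%. Jchain, which encodes the chain that joins the antibody polymers carried by the polymeric receptor, had 1142 and 443 CPM after anti-PD-L1, against 16.4 and 164 CPM after IgG. Both anti-PD-L1 libraries lay above both IgG libraries, unlike Pigr, and its log2 fold change was 3.13 ± 1.24 (edgeR adjusted p = 0.883, DESeq2 adjusted p = 0.0319). Of 11 plasma cell genes found of 12, 8 had higher values in each anti-PD-L1 library than in either IgG library, against 16.5% of all genes. DESeq2 called 2 of the 11 higher, Jchain and Slamf7, and none lower, where it called 2.93% of all genes higher and 0.327% lower, and edgeR called none. Leaving out libraries was not run for the DESeq2 calls.

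Ltf encodes lactoferrin, an iron-binding antimicrobial protein of gland secretions that neutrophils also store in granules. It lies on chromosome 9 between 111019271 and 111042767. Its level was 13432 and 5800.1 CPM after anti-PD-L1, against 2342 and 9299 CPM after IgG. Its share of counts was 1.31% and 0.605% after anti-PD-L1 and 0.235% and 0.914% after IgG. Of 16 neutrophil granule genes 8 were found, and their summed CPM was 17.2 and 18.7 after anti-PD-L1 against 13.6 and 73.4 after IgG. Lcn2 alone made up 56.5 CPM of the sum in IgG replicate 2. Camp, S100a8 and S100a9, defining genes of the list named after their values were seen, stayed at or below 2.00, 1.71 and 3.62 CPM in each library. Of the 8 found, 4 were highest in IgG replicate 2 and 1 in anti-PD-L1 replicate 1, against 17.4% and 30.7% of all genes. IgG replicate 1 was the lowest library for 5 of them, against 19.7%. Ngp, Retnlg, Mmp8, Elane and Ly6g were among the 8 listed genes without a row here. DESeq2 called 1 of the 8 found higher, the receptor gene Csf3r (adjusted p = 0.0422), against 2.93% of all genes, and edgeR called none. Csf3r had 6.04 and 5.99 CPM after anti-PD-L1 against 2.13 and 3.20 CPM after IgG. The part of neutrophils in the Ltf values was not tested.

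Serous gland genes more often shared the highest library of Ltf. Of 16 listed, 14 were found. Anti-PD-L1 replicate 1 was the highest library for 11 of them, against 30.7% of all genes, and IgG replicate 1 the lowest for 7, against 19.7%. Dmbt1, a mucosal scavenger receptor gene, had 6023 and 2014 CPM after anti-PD-L1 against 698 and 4045 CPM after IgG. Lyz1, a lysozyme gene, had 5292 and 677 CPM against 249 and 1565 CPM after IgG. Lyz1 is a close copy of Lyz2, so the split of reads between them is uncertain. Dcpp1, a secreted gland protein gene of the salivary and exocrine list, had 2649.5 and 1002 CPM against 15.5 and 2289 CPM after IgG.

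Reg3g encodes a bactericidal lectin that epithelia make in response to microbes and to cytokines such as interleukin-22. It lies on chromosome 6 between 78466269 and 78468872. Its level was 406 and 55.0 CPM after anti-PD-L1, against 68.8 and 1001.5 CPM after IgG. IgG replicate 2 was thus the highest, and the other library of its group was among the lowest. Lcn2, an iron-sequestering gene that inflamed epithelia and neutrophils both express, had 3.87 and 4.29 CPM after anti-PD-L1 against 3.76 and 56.5 CPM after IgG, and so was also highest there. None of 6 other genes of the regenerating family looked for had a row among the genes analysed here. Of 18 genes of type 17 and type 2 cytokine signalling 12 were found, and the cytokine genes Il17a, Il17f and Il22 were not among them. The list's median log2 fold change was 0.0038. Neither edgeR nor DESeq2 called any of it, where DESeq2 called 2.93% of all genes higher and 0.327% lower. Groups did not overlap for 4 of its genes higher after anti-PD-L1 and 5 lower, against 16.5% and 13.1% of all genes. Stat3, which carries the interleukin-22 signal, had 112 and 134 CPM after anti-PD-L1 against 96.0 and 99.6 CPM after IgG.

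The comparison of anti-PD-L1 with IgG called no difference in any of the 10 genes. The quasi-likelihood test of edgeR, with p adjusted by Benjamini-Hochberg for 16217 genes tested, gave adjusted p = 1 for each, and unadjusted p between 0.292 for Bpifb1 and 0.867 for Muc5b. It called 0% of all genes at 0.05, and none of the 10 had an unadjusted p under 0.05, against 4.96% of all genes higher and 1.1% lower (982 genes). DESeq2 also called none of the 10, against 2.93% of all genes called higher and 0.327% called lower, and limma voom called 0 of all genes. In none of the 10 did the groups fail to overlap, against 29.6% of all genes. The design of 2 against 2 libraries allows no exact two-sided permutation p below 0.333.

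The errors were wide. Bpifb1 had the highest log2 fold change, 1.77 ± 1.48 (SE, n = 2 per group), and Reg3g the lowest, -1.22 ± 1.52. Ltf had 0.72 ± 0.89, Bpifa1 0.42 ± 1.07 and Scgb1a1 0.34 ± 0.94. Muc5b had 0.20 ± 1.10, Pigr -0.22 ± 1.07, Scgb3a2 -0.25 ± 0.88, Foxj1 -0.70 ± 1.15 and Scgb3a1 -0.71 ± 1.20. The median SE of the 10 was 1.08, against 0.236 over all tested genes. With 5 values above 0 and 5 below, the median log2 fold change was -0.014, against 0.00021 over all genes. With limma voom that median was 0.40, and Bpifb1 had a log2 fold change of 0.53. With errors of this size the values do not show that the groups were alike. Counting error was not the limit, since the lowest count of any of the 10 in any library was 193.

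**Figure D3:**
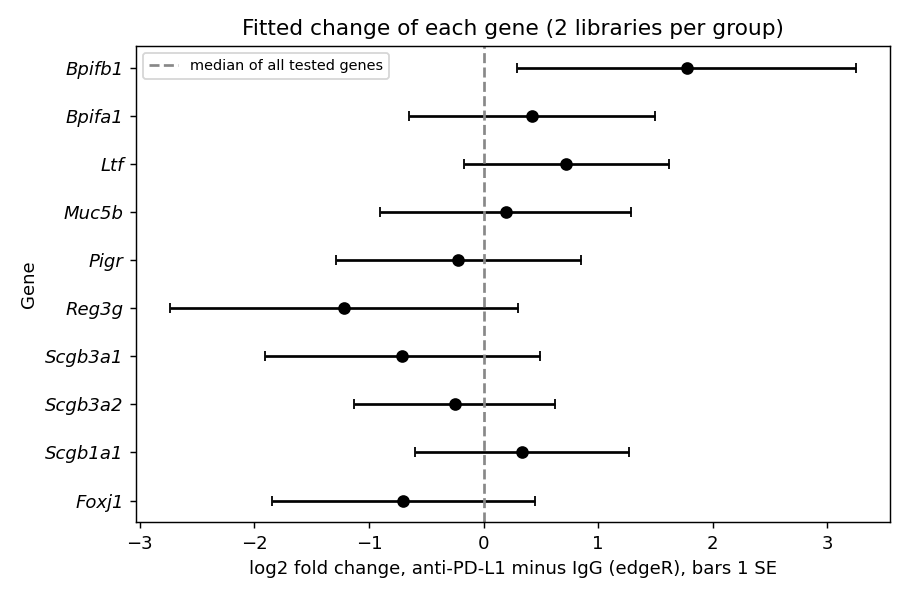
edgeR log2 fold change of each gene, anti-PD-L1 minus IgG, with bars of 1 SE (2 libraries per group) and a dashed line at the median of all tested genes. Values run between 1.77 for Bpifb1 and -1.22 for Reg3g.

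Single libraries set the direction of these values. Without IgG replicate 2 the median of the 10 was 2.14, and without IgG replicate 1 it was -0.84. Without anti-PD-L1 replicate 1 it was -0.95, and without anti-PD-L1 replicate 2 it was 0.20. Bpifb1 was -1.91 without anti-PD-L1 replicate 1 and 2.70 without anti-PD-L1 replicate 2. Foxj1 was 2.11 without IgG replicate 2 and -1.61 without IgG replicate 1. None of the 10 passed in any of these fits, the smallest edgeR adjusted p being 0.187. Summed CPM of the 10 was 26489.7 and 8752 after anti-PD-L1, against 3844 and 17765 after IgG. The log2 difference of 0.88 gave an exact two-sided permutation p = 0.667 (n = 2 per group). Without Ltf, Bpifb1 and Bpifa1, which make up most of the sum, the sums were 2129 and 821 against 358 and 3696 after IgG.

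Gene lists of other tissues next to the thyroid, and some lists of airway epithelium itself, followed different orders of libraries. Squamous epithelial genes, 14 found of 17, summed to 3651 and 69.1 CPM after anti-PD-L1, against 9717 and 2253 CPM after IgG. Krt4, a keratin of wet squamous epithelium, had 1799.8 and 8.92 CPM against 4757 and 952 CPM after IgG. IgG replicate 1, lowest in 8 of the 10 airway and mucosal genes, was thus the highest in squamous genes. Basal cell genes followed the squamous order, with 9 of 12 highest in IgG replicate 1. Of 14 airway transcription factor genes, 7 were highest there. DESeq2 called 1 of the 14, Id2, higher (adjusted p = 0.0420), against 2.93% of all genes. Mucous goblet genes, 13 found of 16, had 6 highest in IgG replicate 2, 4 in anti-PD-L1 replicate 1 and 3 in IgG replicate 1, against 17.4%, 30.7% and 20.4% of all genes. IgG replicate 1 was the lowest library for 7 of the 13 and anti-PD-L1 replicate 2 for 6, against 19.7% and 32.3%. Their mean log2 deviation was positive in anti-PD-L1 replicate 1 and IgG replicate 2 and negative in the others, as for the 10. The goblet list thus partly shared the order of the 10. Muc4, a membrane mucin gene, was one of the 3 highest in IgG replicate 1, with 83.7 and 9.73 CPM after anti-PD-L1 against 104 and 56.6 CPM after IgG. Club cell genes, a list of airway epithelium, had 10 of 16 highest in anti-PD-L1 replicate 1, against 30.7% of all genes. Cyp2f2, a club cell cytochrome gene, had 1026 and 234 CPM against 825 and 505 CPM after IgG, so that IgG replicate 1 was not low in it. Gsto1, the most abundant gene of the club cell list, was highest in IgG replicate 1. It had 2260 and 51.8 CPM after anti-PD-L1 against 2598 and 341 CPM after IgG.

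Cartilage genes more often had groups that did not overlap. Of 16 found of 17, 10 had lower values in each anti-PD-L1 library than in either IgG library, against 13.1% of all genes. DESeq2 called 6 of them lower, where it called 0.327% of all genes lower, and edgeR called none. Acan, the aggrecan gene of cartilage, had 7.35 and 10.6 CPM after anti-PD-L1 against 56.3 and 75.1 CPM after IgG (edgeR adjusted p = 0.162, DESeq2 adjusted p = 3.06e-15). Cnmd, which encodes chondromodulin and was the most abundant gene of the list, was higher in both anti-PD-L1 libraries, with 60.9 and 115 CPM against 56.8 and 43.9 CPM after IgG (edgeR adjusted p = 0.987). Sox6, a transcription factor gene of cartilage, overlapped between groups, with 54.4 and 27.3 CPM against 46.5 and 50.2 CPM after IgG. None of the 10 airway and mucosal genes separated the groups. The 10 lung alveolar genes had a median log2 fold change of -0.08. Neither edgeR nor DESeq2 called any, where DESeq2 called 2.93% of all genes higher and 0.327% lower. The surfactant genes among them, named after their values were seen, did not share an order. Sftpc, which defines alveolar type 2 cells, was at 1.74 to 2.68 CPM. Sftpd had 4.27 and 3.0 CPM after anti-PD-L1 against 2.04 and 27.0 CPM after IgG, and Sftpa1 had 1.76 and 2.00 CPM against 0.725 and 8.19 CPM after IgG. Both were highest in IgG replicate 2 and lowest in IgG replicate 1, as most of the 10 airway and mucosal genes were. Sftpb differed, with 4.89 and 5.21 CPM after anti-PD-L1 against 1.98 and 2.86 CPM after IgG. Of the whole alveolar list, 3 genes were highest in IgG replicate 2, against 17.4% of all genes, and the others peaked after anti-PD-L1. IgG replicate 1 was the lowest library for 5 of the list, against 19.7%. Pth, the parathyroid hormone gene, had 3540.3 and 2529 CPM against 3345 and 1127 CPM after IgG. It was lowest in IgG replicate 2, where most of the 10 airway and mucosal genes were highest. The 9 smooth muscle genes, the 10 ionocyte, tuft and neuroendocrine genes found of 13 and the 9 mucin genes found of 12 had medians of -0.06, -0.17 and -0.32. Neither edgeR nor DESeq2 called any of them, where DESeq2 called 2.93% of all genes higher and 0.327% lower. In the ionocyte, tuft and neuroendocrine list the groups did not overlap for 4 genes lower after anti-PD-L1 and 1 higher. In the mucin list this held for 2 genes, both lower. Over all genes these shares were 13.1% lower and 16.5% higher. The part of these tissues in the values of the 10 genes was not tested.

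**Figure D4:**
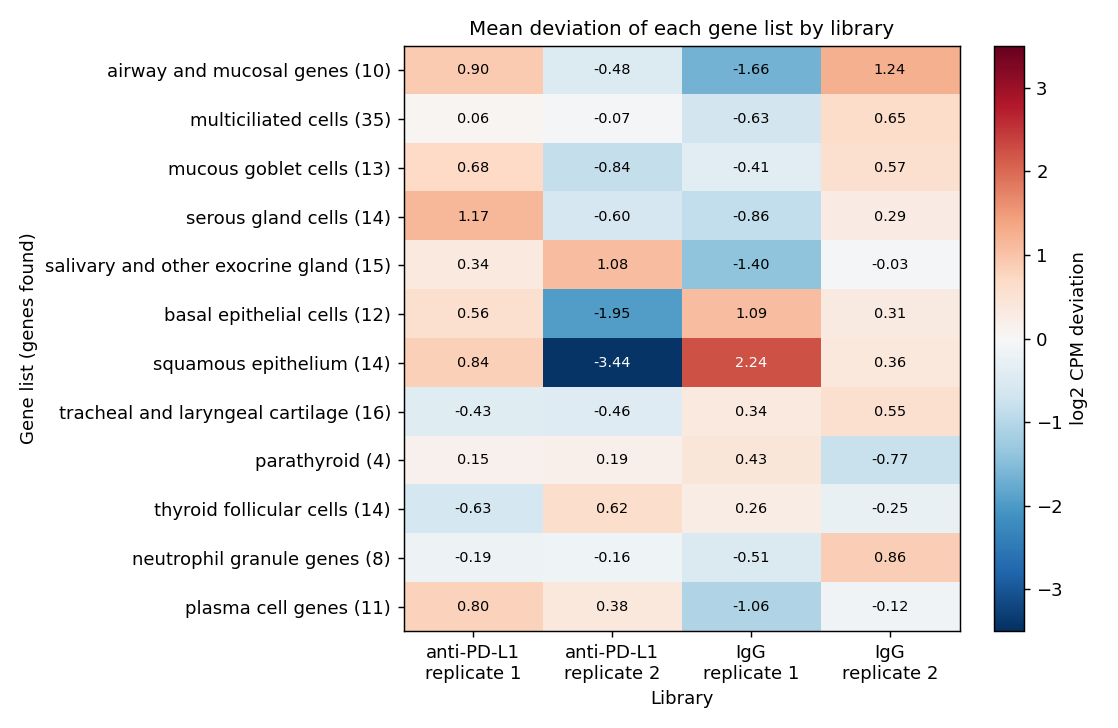
Log2 CPM centred on each gene's own 4-library mean and averaged over the list, by library (columns) and gene list (rows, with the genes found). The airway and mucosal genes run from -1.66 in IgG replicate 1 to 1.24 in IgG replicate 2, whereas squamous genes are highest in IgG replicate 1 at 2.24 and lowest in anti-PD-L1 replicate 2 at -3.44.

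The genes most like the 10 were sought by the Euclidean distance, over 4 libraries, between a gene's centred log2 CPM and the mean centred profile of the 10. The 10 genes themselves lay at 0.152 to 2.65 from that profile, and 16052 other genes with a mean of at least 1 CPM had a median distance of 2.35. The nearest were Nhlrc4 at 0.261, Dynlrb2 at 0.426, Efcab10 at 0.436, Lman1l at 0.446 and Agr2 at 0.481. Dynlrb2 is a dynein light chain gene of the multiciliated list, with 5.05 and 2.76 CPM after anti-PD-L1 against 1.13 and 9.10 CPM after IgG. Agr2, a folding enzyme gene of mucous cells, had 26.6 and 10.7 CPM against 6.30 and 30.0 CPM after IgG. Cr2, BC051019, Cldn2, Lrrc29 and Kcne3 followed at 0.506 to 0.584. Within the 10, Scgb3a1 and Foxj1 were the closest pair at 0.115, then Muc5b and Pigr at 0.448, while Bpifb1 and Scgb1a1 were the farthest apart at 3.78.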

How the data were processed

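The authors deposited expected counts per gene symbol, not normalized, for 4 libraries in 1 table. Per the submitters' processing notes, BWA and mm10 were used. How reads were counted, including strand, annotation and filters, is not given in the sources used here. Counts ending in 0.5 occurred in 3 of the 10 genes, and 13 blank cells in the table were read as 0. Counts were rounded. The main test was run in R 4.3.3 with edgeR 4.0.16, using filterByExpr, TMM scaling, robust quasi-likelihood F tests on group alone, two-sided, and adjustment over all 16217 tested genes at 0.05. SEs were derived from each log2 fold change and its F statistic. The steps were tested on simulated data. Libraries of a group differed beyond sampling noise (the chi-square was 1056 times its degrees of freedom after anti-PD-L1 and 321 times after IgG), so each was counted. At this depth 3 counts are 0.0370 to 0.0408 CPM, which reflects counting error alone. Positions and exon lengths came from GENCODE M21 (GRCm38, equivalent to mm10), in which no exon of the 10 genes overlapped another gene's. Promoter windows are RefSeq's.

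The 10 genes and the other lists were chosen with earlier results of these data known. The naming rule took the 10, the 3 of highest mean CPM in each other list, the 10 nearest profiles, Tg, Cd274, Xist and Ddx3y. Not all of the 3 from each list are described, and which to describe was chosen with their values known. Genes outside the rule, including Id2 and Slamf7, were named after their values were seen. Alternatives were other scalings, filters and tools (DESeq2 1.42.0, limma 3.58.1 voom), the replicate number as a block, and each library left out. Cd274, the gene of PD-L1, had 34.8 and 26.6 CPM after anti-PD-L1 against 23.1 and 10.0 CPM after IgG, and the antibody binds the protein, so this checks no label.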

Additional observations from a re-analysis of the deposited data

How the results depend on the processing

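None of the 10 genes was called under any of the 13 alternatives. Over all genes the count was 0 except with DESeq2, which called 528, 475 of them higher (2.93% of all genes) and 53 lower (0.327%). Among the 240 companion genes of the other lists DESeq2 called 12, of which 6 were higher and 6 lower. The labels number replicates 1 and 2 in each group, and the deviations of same-numbered libraries from their group means had a correlation of 0.0997. With 2 libraries per group this value cannot show whether same-numbered libraries shared their handling. With the replicate number as a block edgeR called 0 genes, and the log2 fold change became 0.29 for Scgb3a1, 0.24 for Scgb3a2, 0.22 for Foxj1 and 0.30 for Pigr. With limma voom these were 0.28, 0.25, 0.26 and 0.30. The median of the 10 was 0.40 under each of these 2 alternatives, against -0.014, and Bpifb1 was 0.49 with the block and 0.53 with voom, against 1.77. For Scgb3a1, Scgb3a2, Foxj1 and Pigr the ratio of mean CPM, anti-PD-L1 over IgG, was 0.612, 0.840, 0.615 and 0.857. These ratios had the direction of the main fit, whereas voom fits log2 values. The cause of these changes of sign was not tested. Leaving out each library in turn, the median of the 10 ranged from -0.95 to 2.14 and the log2 difference of summed CPM from -0.22 to 1.99. The single genes ranged as follows: Bpifb1 -1.91 to 2.70, Bpifa1 -0.45 to 2.77, Scgb1a1 -0.50 to 2.43, Scgb3a1 -1.63 to 2.23 and Scgb3a2 -1.06 to 1.60. Muc5b ranged from -1.02 to 2.17, Foxj1 from -1.61 to 2.11, Reg3g from -3.28 to 1.74, Ltf from -0.0052 to 2.04 and Pigr from -1.08 to 1.97. In such fits the group left with 1 library is assumed to vary like the other. Other scalings and filters changed no direction, and moved the median of all genes by at most 0.020.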

Other observations

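Of 18 salivary and exocrine genes looked for, 15 were found. Of these, 7 were highest in anti-PD-L1 replicate 1, 5 in anti-PD-L1 replicate 2 and 3 in IgG replicate 2. Over all genes these shares were 30.7%, 31.5% and 17.4%. IgG replicate 1 was the lowest library for 10 of the 15, against 19.7% of all genes, as it was for 8 of the 10 airway and mucosal genes. Dcpp2, a gene of the list, had 875 and 441 CPM after anti-PD-L1 against 6.85 and 897 CPM after IgG. A few of the 15, named after their values were seen, were high in 1 library only. Bpifa2, a BPI fold gene of the parotid gland, had 1.18 and 19.2 CPM after anti-PD-L1 against 0.375 and 0.709 CPM after IgG. Smr3a, a salivary peptide gene, had 0.354 and 8.40 CPM against 0.100 and 0.184 CPM after IgG. Cst10, a cystatin gene, had 0.0680 and 3.16 CPM after anti-PD-L1, and its cells for both IgG libraries were blank in the deposited table. All 3 were highest in anti-PD-L1 replicate 2, which was not the highest library for any of the 10 airway and mucosal genes. DESeq2 called 2 of the 15 higher, Bpifa2 and Smr3a (adjusted p = 0.00502 and 0.00421), where it called 2.93% of all genes higher. For these 2 edgeR did not (adjusted p = 0.718 and 0.713).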
